A study of Mus musculus with 8 samples.

Results

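Hypoxia-inducible genes were followed in mouse embryonic hearts that had lost *Dgcr8*, whose product binds primary microRNA transcripts and helps the DROSHA nuclease to cut them. The set held 10 genes, which were *Hif1a*, *Egln1*, *Egln3*, *Ndufa4l2*, *Bnip3*, *Kdm3a*, *P4ha1*, *P4ha2*, *Ddit4* and *Ankrd37*, out of 24385 gene features in the expression table. They were found by symbol, and each had 1 entry. The set was chosen from genes whose difference between *Dgcr8* cKO and WT hearts at E9.5 was already known in these libraries. The E9.5 values of these genes, and the changes between stages that use the same E9.5 libraries, are therefore given as a description with no test. The difference between cKO and WT at E8.5 is a contrast of other libraries and was tested, although its SE came from a fit of all 4 groups and so also used the spread of the E9.5 libraries.

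The RNA-seq data came from 8 libraries in 4 groups of 2 biological replicates, which were WT and cKO hearts of embryonic days 8.5 and 9.5 (E8.5 and E9.5) on a C57BL/6 background. In the cKO embryos, labelled Mesp1Cre/+; Dgcr8-/-, Cre was expressed from the *Mesp1* locus, so that *Dgcr8* was deleted in the progeny of early mesoderm cells, endocardium included. Cells of the heart from other lineages kept the gene. The controls, labelled wild type, were *Dgcr8* loxP/loxP embryos without Cre per the study's methods, so the cKO hearts also differed from them by the Cre allele. Per the study, embryos of both genotypes carried a *Rosa26* mT/mG/+ reporter allele. Whether hearts were pooled for a library was not given in the sources used here. The values were FPKM (fragments per kilobase of transcript, relative to the mapped fragments), which are scaled for length, so that levels of different genes can be set side by side.

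The E8.5 libraries held *Dgcr8* at 7.10 and 8.60 FPKM in WT hearts and at 1.64 and 4.67 FPKM in cKO hearts. At E9.5 it was at 3.49 and 3.23 FPKM in WT and at 1.15 and 1.77 FPKM in cKO. The cKO libraries were below the WT libraries at both stages, in the direction of the labels, although the adjusted p from limma was 0.590 at E8.5 and 0.317 at E9.5. All 6 cardiomyocyte markers (*Actc1*, *Myh6*, *Myl7*, *Nkx2-5*, *Tnnt2* and *Ttn*) were above 1 FPKM in every library. Markers of decidual stroma, a maternal tissue, had a summed level of 506 and 1219 FPKM in E8.5 WT, of 10.9 and 5378 FPKM in E8.5 cKO, and of 1.13 to 6.21 FPKM in the 4 E9.5 libraries, in which its markers *Prl3c1* and *Pgr* were at or near 0. All 8 markers of uterine natural killer cells were above 1 FPKM in 1 library, E8.5 WT replicate 1, and none was in the other 7 libraries. The E8.5 libraries thus differed widely in maternal markers. Other summed markers also varied among them, from 7786 to 35505 FPKM for primitive erythroid cells and from 732 to 6643 FPKM for yolk sac endoderm. The range was 6.08 to 343 FPKM for myeloid cells, 21680 to 47884 FPKM for cardiomyocytes and 51.2 to 77.9 FPKM for endothelium. The part of maternal RNA and of cell composition in the E8.5 values of the hypoxia-inducible genes was not tested.

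Cells read oxygen through prolyl hydroxylases of the EGLN family, which use oxygen to hydroxylate the α subunits of hypoxia-inducible factor (HIF). The VHL ubiquitin ligase binds the hydroxylated subunit and sends it to the proteasome. When oxygen is short, the subunit escapes, pairs with ARNT and binds DNA at a short core motif, switching on genes for glycolysis, for lower mitochondrial respiration, for collagen hydroxylation and for the hydroxylases themselves. The embryonic heart forms before the placental circulation is complete, and HIF activity is a known part of its early development. HIF α subunits are controlled mainly as proteins, which RNA-seq does not measure.

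The core motif that HIF binds was looked for in the proximal promoters, since these genes are grouped by that shared regulator. RefSeq windows on GRCm38.p6, from 250 bases before to 50 bases after a transcription start, were matched for 9 of the 10 genes. No window was used for *Ndufa4l2*. ACGTG on either strand stood in the windows of 8 of the 9 genes, against 19.6% of all 32851 promoter windows of that length. GCGTG, the other common form of the core, stood in the windows of 7 of the 9 genes, against 32.4% of all windows. *Kdm3a* had GCGTG only, and is counted by the window at the start of its locus, since of its 3 windows only that 1 held either motif. The other 8 genes had 1 window each. The windows of these genes were rich in G and C, from 54.7% to 86.0%, while the median window held 52.7%. Among the 9690 windows with at least 60% G or C, 26.5% held ACGTG and 59.2% held GCGTG. A match is a description of the letters and not of binding.

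The stretches around each ACGTG match upstream of the start are shown 5′ to 3′ on the strand of the gene, so that each match can be read in its place. Capitals mark ACGTG or GCGTG on either strand, where CACGT and CACGC are the reverse complements. In *Hif1a* and *Bnip3* the run CACGTG reads as the motif on both strands.
*Hif1a*, chr12:73907722-73907747, + strand: cacagacaagCACGTGagcggggcag
*Hif1a*, chr12:73907787-73907811, + strand: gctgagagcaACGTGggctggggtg
*Egln1*, chr8:124949308-124949332, - strand: gccgtggtgtACGTGcagcgcgcgc
*Egln3*, chr12:54204089-54204113, - strand: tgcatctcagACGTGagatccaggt
*Bnip3*, chr7:138909599-138909624, - strand: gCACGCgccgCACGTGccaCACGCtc
*P4ha1*, chr10:59323270-59323294, + strand: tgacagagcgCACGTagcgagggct
*P4ha2*, chr11:54100836-54100860, + strand: tgcatcgcatACGTGcagcGCGTGg
*Ddit4*, chr10:59951943-59951967, - strand: aacgttgcgaACGTGcgcccggtgc
*Ankrd37*, chr8:46000077-46000100, - strand: cccagcagtACGTGcctagctcgg
*Ankrd37*, chr8:45999851-45999866, - strand: gtgtttgggtACGTGa
Counted from the start site, the first bases of the upstream ACGTG matches lay from position -241 to position -6, both in *Ankrd37*. *P4ha2* had a further match after the start, at position 11, which is not shown. A match lay at -68 in *Egln1*, at -70 in *Hif1a* and at -78 in *P4ha2*. The start site of the *Hif1a* window was 6543 bp away from the edge of the *Hif1a* locus in the expression table, so it is another start of that gene. Within the set, the RNA of *Hif1a* was also the least like that of *Ndufa4l2*, but its replicates differed by up to 6.80-fold, as described below. A link between the motif and the RNA levels was not tested.

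At E9.5, 8 of the 10 genes were higher in both cKO libraries than in both WT libraries, and 7 of these differed by at least 1.5-fold on the log2(FPKM + 1) scale. No gene of the set was lower without overlap. Of all 10018 genes that averaged 1 FPKM or more, 21.0% were higher without overlap at any fold, 8.63% were higher with 1.5-fold and 13.8% were lower with 1.5-fold. The differences of the set ranged from -0.91 to 4.09 on the log2 scale with a median of 1.26, and the median of all tested genes was -0.07. Since these values chose the set, nothing is read from its excess over the background. *Ndufa4l2* had the largest difference, followed by *P4ha2* and *Egln3*. Summed cardiomyocyte markers were also higher in E9.5 cKO, at 64141 and 66275 FPKM against 47764 and 45740 FPKM in WT, as were endothelial markers, at 77.0 and 77.0 against 50.5 and 65.1 FPKM. Their members did not move together. *Actc1* and *Myl7* carried the cardiomyocyte sum, *Nkx2-5* was also higher in both cKO libraries, *Tnnt2* and *Ttn* overlapped, and *Myh6* was lower in cKO, at 424 and 567 FPKM against 916 and 777 FPKM. *Pecam1* and *Tie1* carried the endothelial sum, *Cdh5*, *Emcn* and *Kdr* overlapped, and *Tek* was lower, at 4.45 and 3.51 FPKM against 5.50 and 6.94 FPKM. Myeloid markers summed to 11.5 and 14.6 FPKM against 8.22 and 10.3 FPKM, nearly all of it *Lyz2*. The summed erythroid markers overlapped, but 4 of the 7, *Alas2*, *Gata1*, *Klf1* and *Hba-x*, were higher in both cKO libraries, such as *Alas2* at 20.8 and 14.3 FPKM against 3.94 and 9.18 FPKM. All 5 yolk sac markers overlapped. The part of cell composition in the E9.5 values was not tested.

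**Figure D1:**
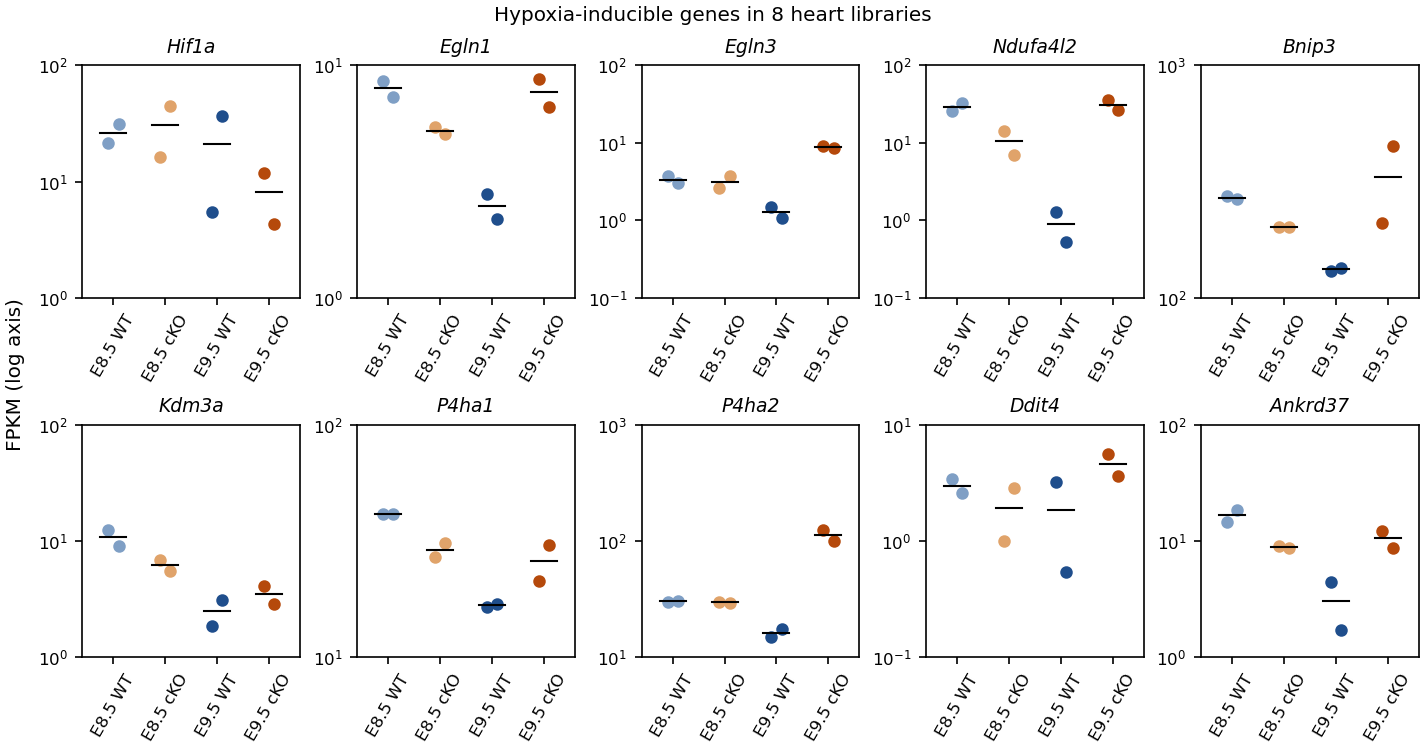
FPKM of the 10 genes in the 8 libraries on log axes, one panel per gene. Points are libraries and black lines are the means of the 2 libraries of a group. In 8 panels, all but those of *Hif1a* and *Kdm3a*, both E9.5 cKO points lie above both E9.5 WT points.

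*Hif1a* (chr12:73901324-73947554), which encodes an oxygen-regulated HIF subunit, was at 21.4 and 31.0 FPKM in E8.5 WT and at 16.4 and 44.6 FPKM in E8.5 cKO. At E9.5 it was at 5.43 and 36.9 FPKM in WT and at 11.8 and 4.34 FPKM in cKO. Replicates of the same group differed by up to 6.80-fold, in E9.5 WT, and the groups overlapped at both stages. Its log2 difference at E9.5 was -0.91 with an SE of 0.84, and it was the only gene of the set with a negative difference at that stage. That sign rested on single libraries, as the log2 difference was 0.37 without E9.5 WT replicate 2 and -2.19 without E9.5 WT replicate 1, so no direction is read from it. Without E9.5 WT replicate 1 or E9.5 cKO replicate 1 the E9.5 groups did not overlap, with cKO lower. The E8.5 groups did not overlap without either E8.5 cKO library, and in opposite directions. There cKO was higher without E8.5 cKO replicate 1 (log2 difference 0.77) and lower without E8.5 cKO replicate 2 (-0.62). An annotated lncRNA, Gm15283, overlaps the *Hif1a* locus by 12831 bp, and whether the counting used strand was not stated.

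*Egln1* (chr8:124908587-124949254) and *Egln3* (chr12:54178981-54203874) encode the oxygen-sensing hydroxylases, and are themselves HIF targets. *Egln1* was at 8.59 and 7.32 FPKM in E8.5 WT, 5.42 and 5.06 FPKM in E8.5 cKO, 2.79 and 2.18 FPKM in E9.5 WT, while the E9.5 cKO libraries had 8.70 and 6.60 FPKM. *Egln3* was at 3.72 and 3.001 FPKM in E8.5 WT, 2.60 and 3.71 FPKM in E8.5 cKO, 1.49 and 1.08 FPKM in E9.5 WT, while the E9.5 cKO libraries had 9.22 and 8.71 FPKM. Both were thus lowest in E9.5 WT and apart from it in E9.5 cKO, where the mean of *Egln1* was 3.07-fold and that of *Egln3* 6.97-fold the WT mean. The log2 differences were 1.30 for *Egln1* (SE 0.24) and 2.13 for *Egln3* (SE 0.25). In E9.5 cKO *Egln3* exceeded its level in every other library, while *Egln1* was about at its E8.5 WT level. The annotated lncRNA Gm46060 lies within the *Egln1* locus. *Egln2*, the related hydroxylase that is not known as a HIF target, showed no such pattern, with 13.2 and 6.71 FPKM in E9.5 WT against 9.92 and 5.57 FPKM in E9.5 cKO.

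*Ndufa4l2* (chr10:127514939-127517156) encodes a mitochondrial protein related to NDUFA4, a subunit of cytochrome c oxidase, and is known to lower oxygen use when HIF induces it. It was at 25.4 and 32.3 FPKM in E8.5 WT and at 14.4 and 6.94 FPKM in E8.5 cKO. It was at only 1.28 and 0.524 FPKM in E9.5 WT, and at 35.7 and 26.4 FPKM in E9.5 cKO. No 2 groups on either side of a stage or genotype comparison overlapped. At E9.5 the cKO mean was 34.5-fold the WT mean, and the log2 difference was 4.09 with an SE of 0.38. The fold rests on a WT level near 1 FPKM, so that the pseudocount matters for it, and the log2 difference was 5.05 with a pseudocount of 0.1 and 2.60 with a pseudocount of 5.

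*Ndufa4*, the constitutive relative, was at 1121 FPKM or more in every library, far above *Ndufa4l2*. It was at 2245 and 1730 FPKM in E9.5 WT and at 1273 and 1765 FPKM in E9.5 cKO, and these overlapped (log2 difference -0.39, SE 0.28, adjusted p = 0.554 by limma). The *Ndufa4l2* locus shares 34 bp with that of *Shmt2*, which encodes a mitochondrial serine enzyme. *Shmt2* was at 46.1 and 41.5 FPKM in E9.5 WT and at 152 and 121 FPKM in E9.5 cKO. Because the use of strand was not stated, reads in the shared bases could not be told apart.

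*Bnip3* (chr7:138890836-138909506), which encodes an outer mitochondrial membrane protein that marks mitochondria for mitophagy, was the most abundant gene of the set in every group. It was at 273 and 266 FPKM in E8.5 WT, 201 and 201 FPKM in E8.5 cKO, 131 and 135 FPKM in E9.5 WT, while the E9.5 cKO libraries had 210 and 452 FPKM. Replicates were at most 1.03-fold apart in 3 groups and 2.15-fold apart in E9.5 cKO, where both were still above WT (mean 2.49-fold, log2 difference 1.21, SE 0.36). The annotated pseudogene Gm18258 lies within the locus. *Bnip3l*, its relative with a like role in mitophagy, was at 23.5 and 41.2 FPKM in E9.5 WT and at 45.7 and 51.5 FPKM in E9.5 cKO. That difference did not pass the threshold (log2 0.62, SE 0.33, adjusted p = 0.402 by limma).

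*P4ha1* (chr10:59323296-59373304) and *P4ha2* (chr11:54100924-54131667) encode catalytic subunits of collagen prolyl hydroxylase, which stabilises the collagen triple helix. *P4ha1* was at 41.1 and 41.2 FPKM in E8.5 WT, 27.0 and 30.9 FPKM in E8.5 cKO, 16.4 and 17.0 FPKM in E9.5 WT, while the E9.5 cKO libraries had 21.3 and 30.5 FPKM. *P4ha2* was at 29.9 and 30.6 FPKM in E8.5 WT, 29.9 and 29.4 FPKM in E8.5 cKO, 14.9 and 17.5 FPKM in E9.5 WT, while the E9.5 cKO libraries had 124 and 100 FPKM. The 2 subunits were therefore at about the same level in E9.5 WT and far apart in E9.5 cKO. The cKO mean was 1.55-fold the WT mean for *P4ha1* (log2 difference 0.58, SE 0.26) and 6.95-fold for *P4ha2* (log2 difference 2.72, SE 0.25). On the log2 scale *P4ha1* just missed the 1.5-fold limit. *P4ha3*, the other catalytic subunit, was at or below 0.239 FPKM in all libraries.

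*Kdm3a* (chr6:71588970-71632917), a histone demethylase that needs oxygen, was at 12.4 and 9.11 FPKM in E8.5 WT, 6.83 and 5.54 FPKM in E8.5 cKO, 1.85 and 3.12 FPKM in E9.5 WT, while the E9.5 cKO libraries had 4.12 and 2.85 FPKM. Its E9.5 groups overlapped, and the log2 difference of 0.37 was little above its SE of 0.30. *Kdm3b*, its relative, was at 0.801 and 0.496 FPKM in E9.5 WT and at 0.695 and 0.435 FPKM in E9.5 cKO. In the deposited values *Kdm3a* and *Hif1a* were thus the 2 genes of the set without a separation of genotypes at E9.5. By rank among the tested genes of a library *Kdm3a* did separate. It was at the 31.1 and 41.7 percentile in E9.5 WT and at the 47.9 and 43.1 percentile in E9.5 cKO.

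*Ddit4* (chr10:59949675-59951770) encodes a stress-induced inhibitor of mTOR signalling. It was at 3.38 and 2.60 FPKM in E8.5 WT, 0.988 and 2.82 FPKM in E8.5 cKO, 3.18 and 0.537 FPKM in E9.5 WT, while the E9.5 cKO libraries had 5.58 and 3.61 FPKM. The lower E9.5 cKO library was only just above the higher E9.5 WT library, and the WT replicates differed by 5.92-fold, so the log2 difference of 1.12 had an SE of 0.50. Without E9.5 WT replicate 2, at 0.537 FPKM, the difference was below the 1.5-fold limit. *Ankrd37* (chr8:45996908-45999850), an ankyrin repeat gene and HIF target, was at 14.6 and 18.5 FPKM in E8.5 WT, 9.09 and 8.76 FPKM in E8.5 cKO, 4.44 and 1.71 FPKM in E9.5 WT, while the E9.5 cKO libraries had 12.2 and 8.72 FPKM. Its E9.5 cKO mean was 3.41-fold the WT mean (log2 difference 1.56, SE 0.36). The *Ankrd37* locus shares 49 bp with *Ufsp2*, which was at 7.51 and 11.3 FPKM in E9.5 WT and at 6.30 and 7.73 FPKM in E9.5 cKO, not higher in cKO.

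The rank of a gene within its library does not depend on how libraries are scaled to each other. *Ndufa4l2* was at the 21.9 and 4.60 percentile of the 10018 tested genes in the E9.5 WT libraries and at the 86.1 and 82.5 percentile in E9.5 cKO. *Egln3* went from the 25.4 and 16.2 percentile in E9.5 WT to the 65.8 and 66.0 percentile in cKO, and *P4ha2* from the 72.9 and 75.4 to the 94.0 and 92.5 percentile. *Bnip3* stayed between the 93.1 and 97.0 percentile in all 8 libraries. So *Ndufa4l2* and *Egln3* moved across much of the range, while *Bnip3* was among the highest genes throughout. In 8 of the 10 genes, all but *Hif1a* and *Kdm3a*, the rank in both E9.5 cKO libraries was above that in the other 6 libraries, as it was for 14.5% of all tested genes.

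**Figure D2:**
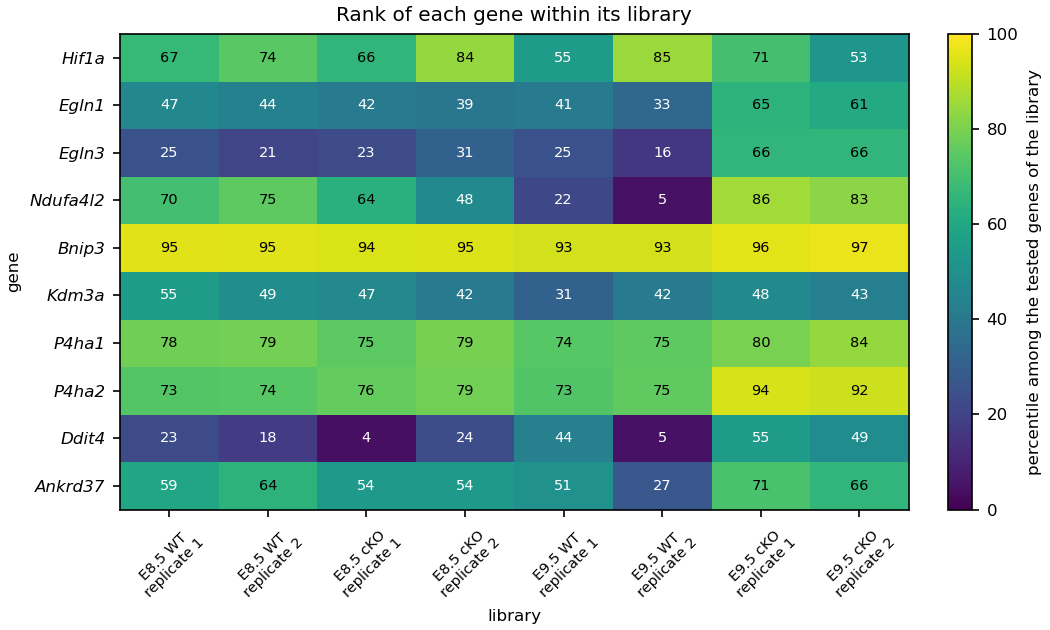
Percentile of each gene (rows) among the 10018 tested genes of each library (columns), with 100 as the highest level. All genes but *Hif1a* and *Kdm3a* rank higher in both E9.5 cKO libraries than in any other library.

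The order of levels within a group also differed. In E8.5 WT it ran from *Bnip3* (mean 269 FPKM) through *P4ha1*, *P4ha2*, *Ndufa4l2*, *Hif1a*, *Ankrd37*, *Kdm3a*, *Egln1* and *Egln3* to *Ddit4* (mean 2.99 FPKM). There the neighbours *P4ha2* and *Ndufa4l2*, *Ndufa4l2* and *Hif1a*, and *Egln3* and *Ddit4* overlapped. In E9.5 WT *Ndufa4l2* was the lowest of the set, at a mean of 0.900 FPKM, and overlapped its neighbour *Egln3*. In E9.5 cKO it was in the third place with a mean of 31.0 FPKM, below *Bnip3* (331 FPKM) and *P4ha2* (112 FPKM) without overlap and overlapping *P4ha1* (25.9 FPKM).

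At E8.5, where the comparison of cKO with WT had no part in choosing the set, none of the 10 genes was called. A call required an adjusted p under 0.05 (Benjamini-Hochberg over the 10018 genes, limma) and at least 1.5-fold, and 0.00998% of tested genes were called in either direction. At an unadjusted p under 0.05 with 1.5-fold, 2 of the 10 were lower, *Ndufa4l2* and *Kdm3a*, and 0 were higher, against 6.90% and 0.240% of all tested genes. A fit of the E8.5 libraries alone called none either. *Ndufa4l2* was the largest difference, at -1.42 on the log2 scale (SE 0.38, 95% interval from -2.30 to -0.55, adjusted p = 0.590, and 0.723 in the E8.5 libraries alone), where the mean of WT was 2.70-fold that of cKO. Its size depended on single libraries, with -1.90 without E8.5 cKO replicate 1 and -0.94 without E8.5 cKO replicate 2. *Kdm3a* differed by -0.70 (SE 0.30, adjusted p = 0.590) and *Ankrd37* by -0.81 (SE 0.36, adjusted p = 0.590). The other 7 lay between -0.53 for *Ddit4* and 0.08 for *Hif1a*, with adjusted p between 0.590 and 0.976.

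Of the 10 genes, 7 were lower in both E8.5 cKO libraries than in both WT libraries, 3 of them by at least 1.5-fold (*Ndufa4l2*, *Kdm3a* and *Ankrd37*), and none was higher. Over all tested genes 40.1% were lower without overlap at any fold, 11.9% were lower with 1.5-fold and 0.439% were higher with 1.5-fold, so most of the transcriptome leaned the same way at E8.5. The median tested gene differed by -0.28, and the median of the set by -0.51. When libraries were scaled by their median ratios, 1 of the 10 was lower with 1.5-fold and without overlap, which was *Ndufa4l2*, against 1.58% of tested genes. Without E8.5 WT replicate 2 or without E8.5 cKO replicate 2 there were 5. Relative to the median gene, *Ndufa4l2* differed by -1.14. With 2 libraries a group no gene of the set passed the test at E8.5.

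**Figure D3:**
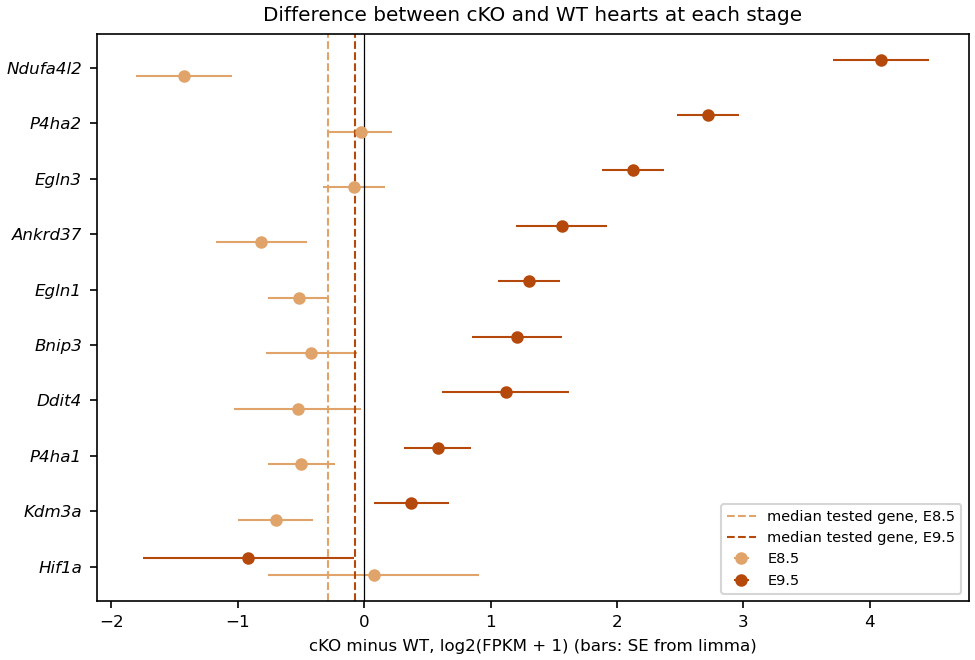
Difference between cKO and WT, in log2(FPKM + 1), for each gene at E8.5 (light) and E9.5 (dark), with bars for the SE from limma and dashed lines for the median of the 10018 tested genes. At E9.5, 9 of the 10 points lie to the right of the median line, from 0.37 for *Kdm3a* to 4.09 for *Ndufa4l2*, and at E8.5 no point lies right of 0.08.

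From E8.5 to E9.5 all 10 genes had lower means in WT hearts, and 8 of them were lower without overlap and by at least 1.5-fold, the exceptions being *Hif1a* and *Ddit4*. As deposited, 66.9% of all tested genes were lower in the same way and the median gene changed by -0.84, so this count says little about the set. With median-ratio scaling 3 of the 10 were lower, against 11.4% of tested genes. *Ndufa4l2* had the largest change, -3.99 as deposited and -3.16 relative to the median gene, followed by *Ankrd37* at -2.18 and -1.35. *Hif1a* and *Ddit4* were the 2 genes above the median gene.

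In cKO hearts the median gene changed by -0.64 between the stages, and 8 of the 10 genes lay above it. Higher in both E9.5 libraries than in both E8.5 libraries and by at least 1.5-fold were 5 of the 10 (*Egln3*, *Ndufa4l2*, *Bnip3*, *P4ha2* and *Ddit4*), against 4.27% of tested genes, and 2 (*Hif1a* and *Kdm3a*) were lower, against 50.6%. With median-ratio scaling 7 were higher, against 17.5% of tested genes. *P4ha2* changed by 1.88, *Ndufa4l2* by 1.52 and *Egln3* by 1.27, while *Hif1a* changed by -1.77 with an SE of 0.84. The stage comparisons and the E9.5 comparison share libraries, so these values are other views of the same E9.5 levels. Summed decidual markers were lower in every E9.5 library than in every E8.5 library, and in bulk samples fewer cells of a type and less RNA per cell cannot be told apart.

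The direction of the genotype difference was opposite at the 2 stages for 6 of the 10 genes. *Egln1*, *Ndufa4l2*, *Bnip3*, *P4ha1*, *P4ha2* and *Ankrd37* were below WT in both E8.5 cKO libraries and above WT in both E9.5 cKO libraries, as were 5.36% of all tested genes. The E8.5 part of this was small for *P4ha2*, with -0.03. With median-ratio scaling there were 4 such genes, *Egln1*, *Ndufa4l2*, *Kdm3a* and *Ankrd37*, against 2.05% of tested genes. The difference between the stages was not tested, because the E9.5 side of it chose the set. Median-ratio scaling left the E9.5 picture much as it was, with 8 of the 10 genes higher by 1.5-fold without overlap, against 12.5% of tested genes.

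The rest of the pathway was read from a list of 68 further genes, of which 58 passed the limit of 1 FPKM. *Edn1*, which encodes the vasoconstrictor endothelin, passed the threshold narrowly in E9.5 cKO hearts, with higher values. The only other gene of the list past it was *Car9*, which encodes a carbonic anhydrase of the cell surface that is among the best known HIF targets, and none was called lower. Over all tested genes 0.170% were called higher and 0.00998% lower. *Car9* was at 0.220 and 0.113 FPKM in E9.5 WT and at 5.38 and 3.92 FPKM in cKO (log2 difference 2.26, SE 0.24), and at 0.566 FPKM or less in all 6 libraries outside E9.5 cKO. It passed the limit of 1 FPKM only through the group in which it was high, so its call is not counted as support. With no such limit its adjusted p was 0.0549 by limma. *Edn1* was at 1.11 and 1.93 FPKM in E9.5 WT and at 9.53 and 7.38 FPKM in cKO (log2 difference 1.92, SE 0.26, adjusted p = 0.0496). Both calls were sensitive to the processing: neither held with a pseudocount of 0.1, with no filter, in a fit of the E9.5 libraries alone or without any 1 of the E9.5 libraries. *Edn1* was also not called without the trend, with rescaling to loci of at least 300 bp or without either E8.5 WT library, and 8 genes of the list were called without either E8.5 cKO library.

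At a weaker limit, and with *Car9* left out, 27 of 57 genes were higher and 1 was lower at E9.5 at an unadjusted p under 0.05 with 1.5-fold, against 5.08% and 9.99% of tested genes. Without overlap and with 1.5-fold, 33 of the 57 were higher and 1 was lower, against 8.63% and 13.8% of tested genes. The median log2 difference of the 57 genes was 0.79. The list was drawn up with earlier results of these libraries known, and it shares the E9.5 libraries with the values that chose the 10 genes, so it is no separate evidence of a direction. At E8.5 no gene of the list was called, against 0.00998% of all tested genes. At the unadjusted limit 3 of the 58 were lower and 0 higher, against 6.90% and 0.240% of all tested genes. The median difference of -0.22 was close to the -0.28 of all tested genes.

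**Figure D4:**
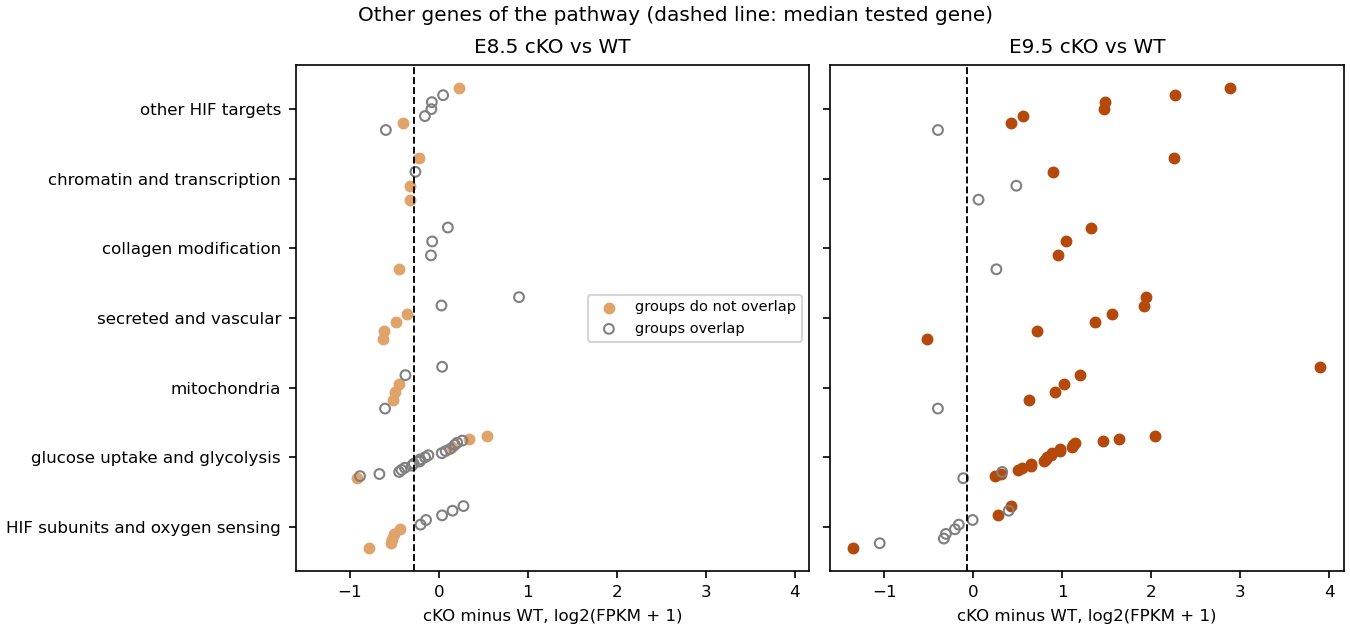
Difference between cKO and WT in log2(FPKM + 1) for the 58 further pathway genes by role, at E8.5 (left) and E9.5 (right), with a dashed line for the median tested gene. Filled points are genes whose cKO and WT libraries do not overlap. At E9.5 the points of glycolysis lie from -0.11 to 2.04, and those of HIF subunits and oxygen sensing from -1.35 to 0.43.

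The counts at E9.5 are given by role, and are to be read against the same 8.63% of all tested genes higher and 13.8% lower. Of the 21 genes of glucose uptake and glycolysis, 15 were higher without overlap and with 1.5-fold, such as *Pfkp* (phosphofructokinase) and *Gys1* (glycogen synthase). *Pfkp* was at 31.5 and 42.6 FPKM in WT and at 140 and 169 FPKM in cKO (log2 difference 2.04, SE 0.43, adjusted p = 0.112). *Gys1* was at 27.4 and 28.0 FPKM in WT and at 99.4 and 78.6 FPKM in cKO (1.64, SE 0.30, adjusted p = 0.0895). Neither passed the threshold, nor did any other gene of this role.

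Of the 6 mitochondrial genes tested, 5 were higher in that way. *Cox4i2*, the hypoxic isoform of a cytochrome c oxidase subunit, had the largest difference of the 58 genes on the log2(FPKM + 1) scale. It was at 7.81 and 11.5 FPKM in E9.5 WT and at 191 and 127 FPKM in E9.5 cKO (log2 difference 3.90, SE 0.60, adjusted p = 0.0648), and the cKO mean was 16.4-fold the WT mean. In E8.5 cKO its replicates were far apart, at 64.6 and 14.6 FPKM. The same count was 5 of 6 for secreted and vascular genes, 3 of 4 for collagen modification, 2 of 4 for chromatin and transcription, and, without *Car9*, 3 of 6 for the other targets.

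Among these, *Ndrg1*, a stress-responsive gene, was at 2.95 and 0.776 FPKM in E9.5 WT and at 26.1 and 13.2 FPKM in cKO (2.89, SE 0.53, adjusted p = 0.0895). *Bhlhe40*, a transcriptional repressor, was at 2.28 and 1.91 FPKM in WT and at 15.9 and 11.9 FPKM in cKO (2.26, SE 0.35, adjusted p = 0.0648). *Adm*, which encodes the vasodilator peptide adrenomedullin, was at 9.16 and 1.61 FPKM in WT and at 15.3 and 22.8 FPKM in cKO (1.94, SE 1.11, adjusted p = 0.450). Its SE was large because 1 library, E8.5 cKO replicate 2, stood at 149 FPKM against 9.63 FPKM in the other, and that library also had the most decidual markers. *Angptl4*, which encodes an inhibitor of lipoprotein lipase, went against the other secreted genes, with 2.92 and 2.34 FPKM in WT against 1.79 and 1.29 FPKM in cKO (-0.52, SE 0.27, adjusted p = 0.394).

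The list of HIF subunits and oxygen sensing does not hold *Hif1a*, *Egln1* and *Egln3*, which are described above and of which the 2 sensors were higher in cKO. Of its 10 genes tested, 0 were higher at E9.5 without overlap and with 1.5-fold, and 1 was lower. That was *Tceb1*, which encodes elongin C of the VHL ligase, at 46.3 and 74.8 FPKM in WT and at 19.1 and 26.5 FPKM in cKO (log2 difference -1.35, SE 0.33, adjusted p = 0.129). *Vhl* itself was at 9.62 and 7.79 FPKM in WT and at 10.3 and 14.0 FPKM in cKO (0.43, SE 0.26, adjusted p = 0.481). The other ligase subunits *Tceb2*, *Cul2* and *Rbx1* differed by -0.01, -1.05 and -0.21, each with overlapping libraries.

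*Epas1*, the second oxygen-regulated subunit, was at 0.813 and 1.79 FPKM in E9.5 WT and at 0.751 and 0.828 FPKM in cKO (-0.33, SE 0.79). *Arnt*, the partner of both, was at 3.64 and 4.05 FPKM in WT and at 2.93 and 3.76 FPKM in cKO (-0.16, SE 0.24). *Hif1an*, which encodes the asparaginyl hydroxylase that blocks HIF activity, differed by 0.28, and *Cited2*, which competes with HIF for its coactivator, by 0.40. None of the 10 passed the threshold at either stage. *Hif3a*, *Arnt2* and *Siah2* were below 1 FPKM on average and were not tested. *Hif3a* was at 0.853 and 0.688 FPKM in E9.5 WT and at 1.90 and 1.31 FPKM in E9.5 cKO.

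The pattern of *Ndufa4l2* over the 8 libraries was then compared with that of every tested gene, by the root mean square difference of log2(FPKM + 1) after centring each gene. The nearest 5 were *H2-Ab1* at 0.78, *Mgarp* at 0.79, *Ier3* at 0.80, *Cox4i2* at 0.81 and *Hilpda* at 0.90, where the median tested gene was at 1.62. *Cox4i2* belonged to the pathway list. *H2-Ab1* encodes a chain of MHC class II, *Mgarp* a mitochondrial protein, *Ier3* an immediate early protein and *Hilpda* a lipid droplet protein. All 5 were lower in both E9.5 WT libraries than in any other library.

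**Figure D5:**
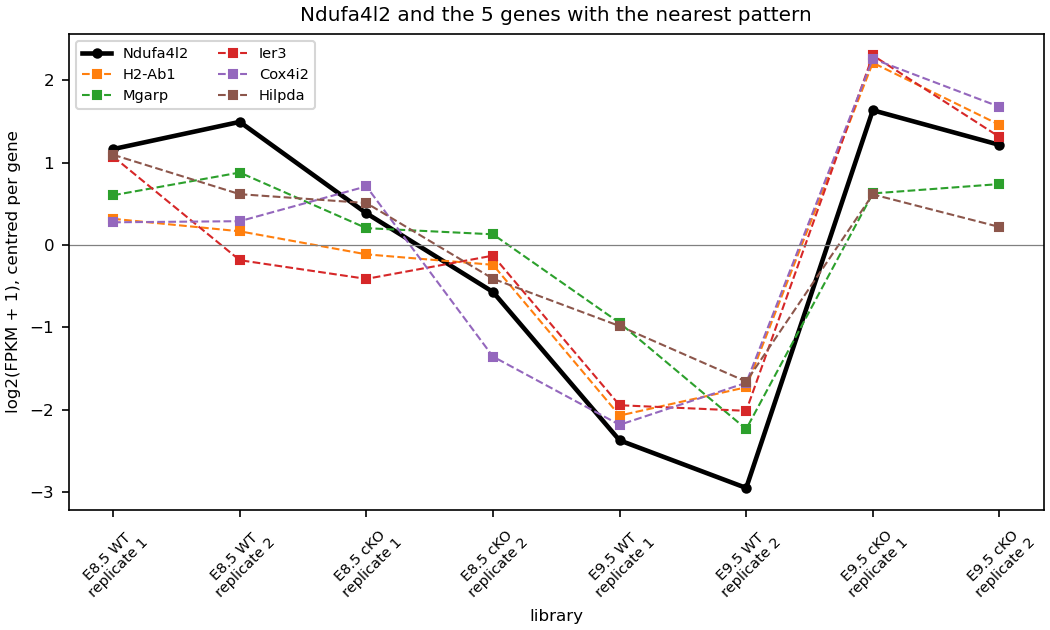
Level of *Ndufa4l2* (black) and of the 5 genes with the nearest pattern, in log2(FPKM + 1) centred per gene, across the 8 libraries in order of group. In all 6 genes the 2 E9.5 WT libraries are the lowest.

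*H2-Ab1* was at 2.29 and 3.17 FPKM in E9.5 WT and at 63.1 and 37.0 FPKM in E9.5 cKO, and *Mgarp* at 12.3 and 4.43 against 38.5 and 41.7 FPKM. *Ier3* was at 2.70 and 2.53 FPKM in E9.5 WT and at 69.4 and 34.4 FPKM in cKO, and *Hilpda* at 16.5 and 9.95 against 51.9 and 39.3 FPKM. Within the set, *Ankrd37* was the nearest gene to *Ndufa4l2*, with rank 7 of all tested genes and a distance of 0.96. *Egln1*, *P4ha2* and *Egln3* followed with ranks 50, 59 and 68, then *Bnip3* with 242, *P4ha1* with 602, *Kdm3a* with 753 and *Ddit4* with 959. *Hif1a* was at rank 9682, among the genes least like *Ndufa4l2*. The likeness is over 8 libraries that share their groups and their scaling, and is a description.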

How the data were processed

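Per the labels and the study's methods, RNA of embryonic hearts was amplified with a SMARTer or Smart-seq2 protocol and sequenced on an Illumina instrument. Per the submitters' processing notes reads were mapped with BWA to mm9. The authors deposited 1 table of FPKM values; the program that made it, its annotation and its use of strand were not given in the sources used here. Gene positions in the table matched GRCm38, as 91.7% of 9513 tested genes found in RefSeq started within 1000 bp of the GRCm38 start, and coordinates are on that build, counted from 1. Of 24930 entries, 285 symbols stood more than once, and of these the most abundant entry was used.

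Whole reads could not be recovered from the values, so absolute depth was unknown and no counting interval was computed. Relative depth, from genes below 0.3 FPKM, ranged from 1 to 1.45. FPKM sums ranged from 884018 to 1944600, with 15.7% to 54.5% of each sum in loci under 300 bp, which can move all other genes of a library.

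The 10018 genes averaging 1 FPKM or more were analysed as log2(FPKM + 1) with limma 3.58.1 (R 4.3.3), fitting the 4 groups together with a mean-variance trend, after a check on simulated data. Tests were two-sided, adjusted by Benjamini-Hochberg and called at an adjusted p under 0.05 with 1.5-fold, the fold limit of the study, which named an unpaired t-test. With 2 against 2 libraries the smallest exact permutation p is 0.333. A pseudocount of 1 understates changes of low genes. The p-values measure the spread between 2 libraries a group.

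The 10 genes, the pathway list and the marker lists were chosen with earlier results of these data known. Genes named are those 10, *Dgcr8*, the HIF subunit and oxygen sensing list, close relatives, the pathway genes called or, up to 8 in each direction, with the largest E9.5 difference without overlap, and the 5 genes nearest *Ndufa4l2*. *Shmt2* and *Ufsp2* are named as overlapping neighbours. Alternatives were other pseudocounts, filters and scalings, a replicate block, a fit by stage, no trend and leaving out each library.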

Additional observations from a re-analysis of the deposited data

Results flagged for a closer look

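For 6 of the 10 genes and 10 of the further pathway genes, both cKO libraries lay below WT at E8.5 and above WT at E9.5. The log2 differences at E8.5 and E9.5 were -0.52 and 1.30 for *Egln1*, and -1.42 and 4.09 for *Ndufa4l2*. They were -0.42 and 1.21 for *Bnip3*, -0.50 and 0.58 for *P4ha1*, and -0.027 and 2.72 for *P4ha2*. They were -0.81 and 1.56 for *Ankrd37*. Of the further genes, *Edn1* had -0.36 and 1.92, *Hk2* -0.92 and 0.97, and *Vhl* -0.79 and 0.43. *Bnip3l* had -0.49 and 0.62, *Higd1a* -0.52 and 1.02, and *Jmjd6* -0.33 and 0.90. *Stc2* had -0.48 and 1.37, *Igfbp3* -0.62 and 1.56, *Loxl2* -0.45 and 1.33, and *Ccng2* -0.40 and 0.43. Of all tested genes 5.36% showed this pattern. At E8.5 the median tested gene differed by -0.28, and 40.1% of tested genes were lower without overlap. Relative to the median gene, the E8.5 differences of these genes ranged from -1.14 for *Ndufa4l2* to 0.26 for *P4ha2*, with *Jmjd6* at -0.04 and *Edn1* at -0.08. With median-ratio scaling 4 of the 10 genes showed the pattern (*Egln1*, *Ndufa4l2*, *Kdm3a* and *Ankrd37*), against 2.05% of tested genes. The difference between the stages was not tested. The decidual markers of the E8.5 libraries, whose part was not tested, are given above.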

How the results depend on the processing

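The count of 0 of the 10 genes called at E8.5 and of 7 higher at E9.5 by 1.5-fold without overlap stayed within 1.5 times under every alternative run. The number of further pathway genes called higher at E9.5, 2 as reported, was 0 with a pseudocount of 0.1, with no filter and in a fit of the E9.5 libraries alone. It was 1 with a mean of at least 5 FPKM (*Cox4i2*, as neither *Car9* nor *Edn1* reached that mean), and 1 (*Car9*) with rescaling to loci of at least 300 bp, without the trend and with a replicate block, 4 with quantile normalization and 8 with median-ratio scaling. Leaving out 1 library gave 0 to 8, with 0 without any E9.5 library, 1 without either E8.5 WT library and 8 without either E8.5 cKO library. The replicate numbers do not pair the libraries (correlation of deviations 0.017 at E9.5 and -0.0036 at E8.5), and the block changed no other count beyond 1.5 times. At E8.5 the genes lower by 1.5-fold without overlap, 3 as reported, were 1 with median-ratio scaling or quantile normalization, 5 with rescaling to long loci and 2 to 5 without 1 library (5 without E8.5 WT replicate 2 or E8.5 cKO replicate 2). Genes higher at E8.5 and lower at E9.5 in that way were 0 to 1 each without 1 library. In cKO hearts between stages, 2 genes lay below the median gene, 1 with quantile normalization and 1 to 2 without 1 library. Of the 5 genes nearest *Ndufa4l2*, 3 stayed with a pseudocount of 0.1 and 3 with 5, and 2 to 5 without 1 library, the lowest without E9.5 WT replicate 2. At E9.5 the sign of *Hif1a* (-0.91) turned to 0.37 without E9.5 WT replicate 2. Signs at E8.5 turned for 3 genes with small differences. *Hif1a* (0.08) was at -0.017 with long loci and from -0.62 (without E8.5 cKO replicate 2) to 0.77 without 1 library, with -0.18 without E8.5 WT replicate 1. *Egln3* (-0.08) was at 0.19 with median-ratio scaling, 0.16 with quantile normalization, and from -0.27 to 0.12 (without E8.5 cKO replicate 1) without 1 library, with 0.042 without E8.5 WT replicate 1. *P4ha2* (-0.03) was at 0.32 and 0.33 with these scalings. The cause was not tested. With 2 libraries a group and depth unknown, small changes of low genes could not be resolved.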
